A study of Mus musculus with 23 samples.

Results

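Two-gene regions are stretches of open chromatin that lie at the boundaries of at least 2 protein-coding genes at once. They were chosen by position: the peaks of 9 peak lists that overlapped by at least 1 bp on the 19 autosomes and chromosome X were merged into regions, and a region was a member when at least 3 lists called it and its midpoint lay within 1 kb of a start or end of each of 2 or more protein-coding genes of the RefSeq annotation of mm10. Of 118102 merged regions, 18808 were called by at least 3 lists, and 1176 of these (6.25%) were two-gene regions. They were set against 7295 one-gene regions, which met the same minimum of lists and lay within 1 kb of a boundary of 1 gene, while 10337 regions had no gene boundary within 1 kb. The lists come from ATAC-seq, an assay in which the Tn5 transposase cuts accessible DNA, of mouse maxillary prominence mesenchyme, which forms much of the upper jaw. All embryos were wild type C57BL/6, the ectoderm was peeled away after Dispase treatment, and each of the embryonic days E10.5, E11.5 and E12.5 had 3 biological samples. No source used here states how many embryos went into a sample.

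Neighbouring mammalian genes are often arranged head to head, with their transcription start sites close together on opposite strands, so that the short DNA between them serves as a promoter for both. Such bidirectional promoters are usually rich in CpG dinucleotides, lack a TATA box and are well known from DNA repair, mitochondrial and other housekeeping genes. Replication-dependent histone genes, which are transcribed in S phase, are also laid out in divergent pairs, with promoters that carry CCAAT boxes.

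Divergent gene pairs whose annotated genes do not overlap have a stretch of DNA between their 2 starts. Some such stretches are printed below from the RefSeq promoter table of GRCm38.p6 (the assembly of mm10), each on the plus strand from the start of the minus-strand gene, named first, to the start of the plus-strand gene. Capitals mark the CCAAT box, the ETS letters CCGGAAG, the GC box letters GGGCGG and the NRF1 letters GCATGCG, each on either strand, and a match of letters is not evidence of a bound factor. The first set holds a pair whose region was called by all 9 lists with 1 of the highest folds (Hnrnpc/Rpgrip1) and 2 pairs known as textbook divergent pairs (Ranbp1/Trmt2a and Mrps12/Sars2).
Hnrnpc/Rpgrip1 (chr14:52104040-52104240): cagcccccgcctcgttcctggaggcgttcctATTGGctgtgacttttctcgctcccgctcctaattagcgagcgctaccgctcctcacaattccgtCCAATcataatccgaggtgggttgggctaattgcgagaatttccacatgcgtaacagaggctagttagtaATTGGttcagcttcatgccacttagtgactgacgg
Ranbp1/Trmt2a (chr16:18248695-18248846): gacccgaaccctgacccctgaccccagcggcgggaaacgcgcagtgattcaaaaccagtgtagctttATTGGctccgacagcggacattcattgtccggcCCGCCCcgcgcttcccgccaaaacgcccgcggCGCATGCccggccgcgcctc
Mrps12/Sars2 (chr7:28741822-28741956): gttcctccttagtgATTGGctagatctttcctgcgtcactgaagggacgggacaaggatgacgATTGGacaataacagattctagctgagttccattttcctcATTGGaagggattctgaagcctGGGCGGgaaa
The next set holds pairs whose region was called by every list of 1 stage and by no list of another.
Moap1/Tmem251 (chr12:102743662-102743718): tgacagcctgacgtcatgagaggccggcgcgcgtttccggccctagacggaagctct
1810024B03Rik/Snrnp200 (chr2:127208281-127208385): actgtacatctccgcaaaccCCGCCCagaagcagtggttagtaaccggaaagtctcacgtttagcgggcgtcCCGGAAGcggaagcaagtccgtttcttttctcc
Spata1/Gng5 (chr3:146499794-146499835): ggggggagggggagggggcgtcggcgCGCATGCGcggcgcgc
The last set holds the 4 divergent pairs of histone H2A and H2B genes among the members, described further on. Each of them holds several CCAAT boxes, with 4, 3, 5 and 4 matches in the order printed.
H2bc13/H2ac13 (chr13:21716184-21716411): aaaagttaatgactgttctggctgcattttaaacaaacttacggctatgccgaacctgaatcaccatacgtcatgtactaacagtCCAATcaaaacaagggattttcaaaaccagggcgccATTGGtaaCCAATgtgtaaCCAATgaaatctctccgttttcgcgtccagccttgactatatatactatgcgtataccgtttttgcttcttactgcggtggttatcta
H2ac12/H2bc12 (chr13:22035644-22035820): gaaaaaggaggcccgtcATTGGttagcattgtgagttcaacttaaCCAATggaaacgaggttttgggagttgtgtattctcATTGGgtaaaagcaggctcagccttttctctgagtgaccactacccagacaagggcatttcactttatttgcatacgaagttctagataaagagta
H2ac11/H2bc11 (chr13:22042950-22043197): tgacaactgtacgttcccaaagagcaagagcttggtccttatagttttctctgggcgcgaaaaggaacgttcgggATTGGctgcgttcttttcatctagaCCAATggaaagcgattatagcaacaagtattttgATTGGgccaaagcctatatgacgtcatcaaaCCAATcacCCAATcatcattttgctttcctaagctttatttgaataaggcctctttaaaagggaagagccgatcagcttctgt
H2bc7/H2ac7 (chr13:23574208-23574380): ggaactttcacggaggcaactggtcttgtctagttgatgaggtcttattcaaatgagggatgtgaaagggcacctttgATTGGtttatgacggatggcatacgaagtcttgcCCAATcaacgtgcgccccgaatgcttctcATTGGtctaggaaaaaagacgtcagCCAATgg

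The arrangement of the genes was mostly head to head. Strand was known for 17274 of the 21631 genes, through the promoter table. Of the 1176 two-gene regions, 708 (60.2%) were divergent, with the 5′ ends of their 2 nearest genes on opposite strands, and 156 were tandem, with the 3′ end of one gene and the 5′ end of the next on the same strand. Another 38 lay at nested or overlapping genes, 6 were convergent (2 gene ends face to face), and 268 had at least 1 gene without strand. All but 23 members had exactly 2 genes within 1 kb: 22 had 3 genes, and a single one, in the protocadherin gamma cluster, had 24 overlapping gene models. In all, 2290 genes (10.6% of those annotated) had a two-gene region.

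The 2 starts of a divergent region mostly lay close. The signed gap between them had a median of 40 bp (quartiles -111 and 134 bp). A negative gap means that the annotated genes overlap at their 5′ ends, as in 257 regions. Negative and positive gaps offset each other in this median, so it is not the typical distance between the starts. The merged region spanned both starts in 583 of the 708 divergent regions, and its midpoint lay at a median of 123 bp from the centre of the 2 starts. The wider gaps were few, with 22 regions at over 500 and up to 1000 bp. The mean number of lists calling was 6.47 of 9 where the starts overlapped, 6.56 at gaps of 0 to 200 bp, 6.87 above that up to 500 bp and 6.45 from there to 1000 bp, with no steady order. Tandem regions sat at the downstream promoter rather than at the upstream gene end: the 5′ end was the nearer boundary in 132 of 156 (84.6%), at a median of 166 bp, against 553 bp for the 3′ end.

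Divergent regions were called by more lists than tandem ones. A two-gene region was called by 6.14 lists on average, against 5.65 for a one-gene region. All 9 lists called 218 two-gene regions (18.5%) and 799 one-gene regions (10.95%), while 6.41% of all 18808 regions met this criterion. Within the two-gene regions, 169 of 708 divergent (23.9%) but 6 of 156 tandem regions (3.85%) were called by all 9 lists, and 87 divergent (12.3%) and 47 tandem regions (30.1%) by just 3. Divergent regions were called by 6.56 and tandem regions by 5.02 lists on average, and one-gene regions at a 5′ end by 5.74, between these values. The 6 convergent regions, which have no start within reach, averaged 3.67 lists, near the 3.95 of one-gene regions at a 3′ end. Widths differed as well: the merged regions had a median width of 847 bp when divergent, 622.5 bp when tandem and 730 bp for one-gene regions. The part of width in these counts was not tested.

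Lists of the same stage differed widely in how many two-gene regions they called. Of the 1176 regions, 70.4%, 73.9% and 63.9% were called in the E10.5 lists, 53.5%, 94.2% and 97.4% in E11.5 lists, and 41.3%, 67.8% and 51.3% in E12.5 lists. Whether fewer cells of a type had a region open, or each cell had it less open, cannot be told apart in bulk tissue. One-gene regions gave lower shares in each list, with 64.3%, 71.7% and 55.5% in E10.5 lists, 45.5%, 87.6% and 93.4% in E11.5 lists, and 33.3%, 64.0% and 49.7% in E12.5 lists. Of all 18808 regions, 50.9%, 58.2% and 46.7% were called in the E10.5 lists, 27.5%, 56.8% and 83.1% in E11.5 lists, and 42.0%, 71.8% and 46.9% in E12.5 lists, so that the two-gene share lay below that of all regions in E12.5 samples 1 and 2 and above it in the other 7 lists. The lists are very unequal in length, from 5682 peaks in E11.5 sample 1 to 50361 in E12.5 sample 2, and the longest list was not the one that called most of the members. The share of two-gene regions called averaged 69.4% ± 5.05 in E10.5 lists, 81.7% ± 24.5 in E11.5 lists and 53.5% ± 13.4 in E12.5 lists (SD, n = 3 each). Its slope of -7.98 percentage points per day did not pass the exact permutation test, two-sided, over every way to assign the 9 lists to stages (p = 0.324, 0.756 after Benjamini-Hochberg adjustment over 7 slopes). E12.5 minus E10.5 was -16.0 percentage points, and the lists of the 2 stages overlapped (exact permutation p = 0.2). With 3 lists against 3, no exact two-sided p can go below 0.1.

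**Figure D1:**
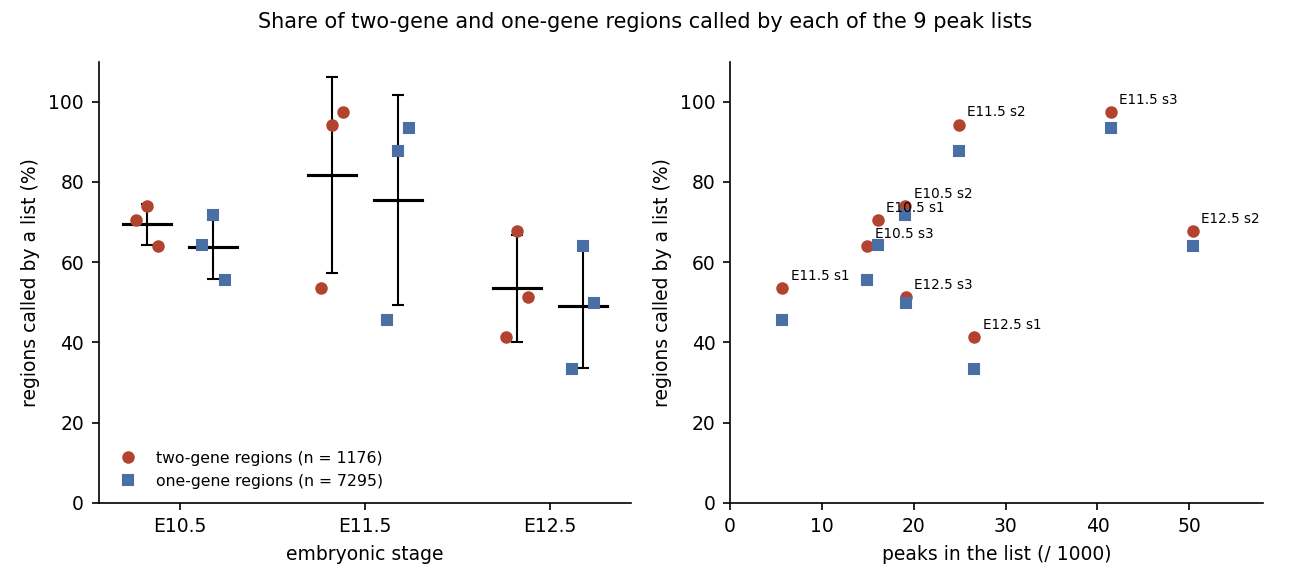
Share of two-gene regions (circles) and one-gene regions (squares) called by each list, by stage (left, with mean and SD of 3 lists) and against the number of peaks in the list (right, divided by 1000; s1 to s3 are samples 1 to 3). In all 9 lists the circle lies above the square of the same list, while the lists range from 41.3% to 97.4% of two-gene regions.

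Within each list, two-gene regions had higher odds of a call than one-gene regions. The log2 odds ratio was 0.55 ± 0.45 (SD, n = 9 lists), above 0 in 9 of 9 lists, and ranged from 0.09 in E12.5 sample 3 to 1.40 (exact two-sided sign-flip permutation test over all sign patterns, p = 0.0039, the smallest it can give; 0.0059 adjusted over 6 tests). When the list under test was left out of the choice of members, so that a region needed 3 of the other 8 lists, the value was 0.59 (exact permutation p = 0.0039). With midpoints within 250 bp of the nearest boundary in both sets it was 0.36, and among promoters with a CpG observed over expected ratio of at least 0.6, a comparison chosen after the data were seen, it was 0.44 (exact permutation p = 0.0039 each). The log2 odds ratio averaged 0.35 in E10.5 lists, 1.02 in E11.5 lists and 0.28 in E12.5 lists, and its slope of -0.04 per day missed the threshold (exact permutation p = 0.848).

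Counted from the annotation instead of from the peaks, the difference was larger. Of 903 divergent gene pairs with starts within 1 kb of each other, 691 (76.5%) had a region called by at least 3 lists, against 5165 of 13854 lone 5′ ends with no other gene boundary within 2 kb (37.3%). Single lists called 36.5% to 86.5% of the pairs and 14.4% to 44.9% of the lone starts. The log2 odds ratio, computed for each list with no minimum of lists and chosen after the data were seen, averaged 2.12 and was above 0 in 9 of 9 lists (exact sign-flip permutation p = 0.0039). A pair offers 2 starts and a lone 5′ end offers 1.

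The fold enrichment of the peaks over background, as the authors' peak caller gave it, was compared by its percentile among the peaks of the same list. The median percentile of called two-gene regions was 77.3, 78.8 and 76.2 in E10.5 lists, 57.5, 81.0 and 89.7 in E11.5 lists, and 71.3, 82.8 and 76.7 in E12.5 lists. It exceeded that of one-gene regions by 2.82 ± 1.58 percentile points (SD, n = 9 lists), in 8 of 9 lists with a tie in E11.5 sample 1 (exact sign-flip permutation p = 0.0078, 0.0094 adjusted over 6 tests). The direction turned in lists cut to equal length, where the difference was -0.21 (exact permutation p = 0.926), and with both sets within 250 bp of a boundary it was 0.83 (exact permutation p = 0.219). Its slope of -0.16 percentile points per day missed the threshold (exact permutation p = 0.824).

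Divergent regions stood well above tandem regions in both measures. Of the divergent regions, 77.1%, 80.5% and 70.9% were called in the E10.5 lists, 59.7%, 95.8% and 98.2% in E11.5 lists, and 45.6%, 71.2% and 57.5% in E12.5 lists. Of the tandem regions, 49.4%, 52.6% and 47.4% were called in the E10.5 lists, 34.6%, 92.3% and 95.5% in E11.5 lists, and 29.5%, 64.1% and 36.5% in E12.5 lists. The log2 odds ratio of divergent against tandem regions was 1.29 ± 0.44, above 0 in 9 of 9 lists, and the median fold percentile was higher by 32.1 ± 13.9 points, also in 9 of 9 lists (SD, n = 9; exact sign-flip permutation p = 0.0039 for each, 0.0059 adjusted over 6 tests). The odds ratio stayed near this size with 5′ ends within 250 bp of the midpoint in both sets (1.30, 609 divergent and 99 tandem regions) and with a CpG ratio of at least 0.6 (1.23, 641 and 121 regions), both chosen after the data were seen. When the list under test was left out of the choice of members, the odds ratio was 1.46 (exact permutation p = 0.0039). The fold percentile was not compared in this way. The odds ratio no longer passed the test when a list's peaks had to cover at least 50% of the merged region (0.42, exact permutation p = 0.242).

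Against one-gene regions at a 5′ end, divergent regions had a log2 odds ratio of 0.84 ± 0.37, above 0 in 9 of 9 lists (exact sign-flip permutation p = 0.0039, 0.0059 adjusted). Tandem regions had -0.45 ± 0.56 against the same set, above 0 in 3 of 9 lists, and did not pass the test (exact permutation p = 0.0508). Neither comparison was repeated with the list under test left out of the choice of members. Each tested list thus also counted towards the minimum of lists.

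The lead of divergent over tandem regions was smaller in the E12.5 than in the E10.5 lists, but its slope over stages did not pass the adjusted test. The log2 odds ratio was 1.79, 1.90 and 1.43 in the E10.5 lists, 1.48, 0.94 and 1.37 in the E11.5 lists, and 1.00, 0.47 and 1.23 in the E12.5 lists. The highest E12.5 list was below the lowest E10.5 list (difference of means -0.81, exact permutation p = 0.1, the smallest that 3 against 3 can give). The slope was -0.40 per day with an exact permutation p of 0.0095, which did not hold after adjustment over 7 slopes (0.0667). Without E12.5 sample 2 the slope was -0.31 (exact permutation p = 0.241), and without E10.5 sample 2 it was -0.33 (exact permutation p = 0.0946). The difference in median fold percentile had another order, with 37.4 points in E10.5 lists, 17.0 in E11.5 lists and 41.9 in E12.5 lists, and each E11.5 list lay below every list of the other stages (exact permutation p = 0.1 each).

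**Figure D2:**
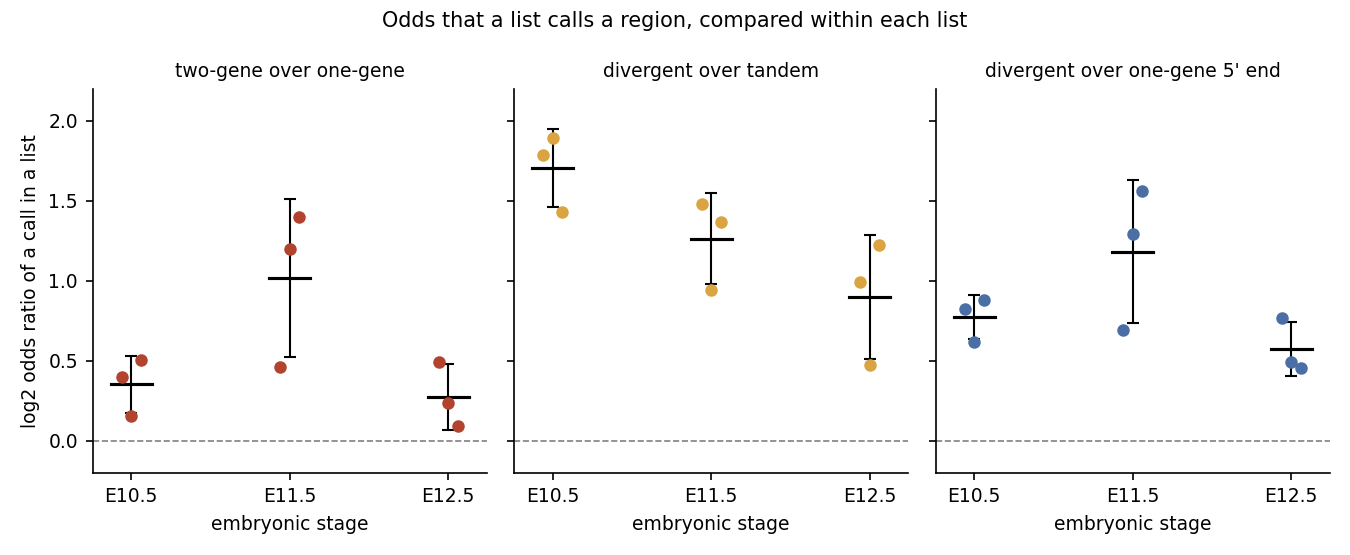
Log2 odds ratio of a call within each list (points, with mean and SD of 3 lists per stage) for two-gene over one-gene regions (left), divergent over tandem regions (middle) and divergent over one-gene 5′ regions (right); the dashed line marks equal odds. All points lie above 0, and the middle panel steps down from a mean of 1.70 in E10.5 lists to 1.26 in E11.5 lists and 0.90 in E12.5 lists.

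By the count of regions called in at least 2 of a stage's 3 lists, the number of two-gene regions was highest for E11.5 and lowest for E12.5, although single lists of these stages overlapped: E12.5 sample 2 called 797 regions and E11.5 sample 1 called 629. At least 2 of the 3 lists called 822 of them (69.9%) for E10.5, 1097 (93.3%) for E11.5 and 636 (54.1%) for E12.5, against 48.8%, 55.0% and 57.3% of all 18808 regions in the same order of stages. One-gene regions had the same order, with 63.9%, 85.5% and 49.5%. At every stage 534 two-gene regions (45.4%) met this, against 2606 one-gene regions (35.7%) and 21.1% of all regions. Among members the share at every stage was 53.5% for divergent regions (379) and 25.0% for tandem regions (39). Another 247 two-gene regions (21.0%) met it for E10.5 and E11.5 without E12.5, near the 21.3% of one-gene regions, where all regions had 12.7%. For E11.5 alone 255 (21.7%) did, against 23.5% of one-gene regions and 17.6% of all regions. For E12.5 alone 24 (2.04%) did, against 5.28% of one-gene regions and 23.9% of all regions, and for E10.5 alone 24 (2.04%) did, against 3.28% and 6.27%.

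Few members separated E12.5 from E10.5 completely. All E12.5 lists and no E10.5 list called 5 two-gene regions (0.425%), while 3.00% of all 18808 regions met this criterion and 0.727% of one-gene regions did. In the opposite direction, all E10.5 lists and no E12.5 list called 36 two-gene regions (3.06%), against 3.07% of one-gene regions, with 1.92% of all regions. The share of two-gene regions here is thus near that of one-gene regions. The 5 regions called at E12.5 and not in E10.5 lists lay at Ajm1/Phpt1, Lrrc24/Lrrc14, Zfp653/Ecsit, Cmc2/Atmin and Krtcap3/Nrbp1, and 3 of them were tandem. Their fold percentiles in the E12.5 lists were low to middling, from 0.5 to 66.0. Cmc2/Atmin and Krtcap3/Nrbp1 were called by the 3 E12.5 lists alone, which by themselves meet the minimum of lists for membership. The one-gene regions and all 18808 regions passed the same minimum. The region of Zfp653, a zinc finger gene, and Ecsit, an assembly factor of respiratory complex I, had fold percentiles of 2.1, 24.6 and 5.1 in the E12.5 lists. The count of 5 was 9, 9 or 11 without E10.5 sample 1, 2 or 3. It was 10 or 13 without E12.5 sample 1 or 3. The count of 36 was 65 without E10.5 sample 3 and 82 or 63 without E12.5 sample 2 or 3. Leaving out a list makes the criterion for its stage easier to meet, so part of these rises is built in.

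The regions called at E10.5 and absent from every E12.5 list included some with high folds. The region of Kif18a, a kinesin that aligns chromosomes in mitosis, and Mettl15, a methyltransferase of the mitochondrial ribosomal RNA, had fold percentiles of 66.4, 74.4 and 86.3 in E10.5 lists and 96.3, 99.2 and 99.2 in E11.5 lists, and no E12.5 list called it. The divergent region of Moap1, a modulator of apoptosis, and Tmem251, whose starts are 57 bp apart, had percentiles of 72.6, 89.3 and 90.7 in E10.5 lists and 90.3, 93.2 and 84.5 in E11.5 lists, and was also absent from every E12.5 list. The regions at Setdb2/Cab39l, Morn2/Dhx57 and Slc25a27/Cyp39a1 showed the same pattern, with mean percentiles of 83.8 to 85.5 over the 6 lists that called them. These regions are named for their high mean fold percentile among the 36, and others of the 36 were lower: Phykpl/Col23a1 had 13.9 and 26.9 in E10.5 samples 2 and 3.

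Complete differences from E11.5 were counted in the same way, in both directions. The 3 lists of 1 stage again suffice for the minimum of lists, so a member can enter through the very stage that calls it. All E11.5 lists and no E12.5 list called 112 two-gene regions (9.52%), against 11.3% of one-gene regions, with 7.74% of all regions. All E11.5 lists and no E10.5 list called 54 (4.59%), against 4.96% of one-gene regions, with 4.04% of all regions. The reverse directions held 3 regions each: 0.255% for E12.5 without E11.5, where 3.52% of all regions qualified, and 0.255% for E10.5 without E11.5, where 0.936% did. Among the 54 was the divergent region of Snrnp200, the helicase of the U5 small nuclear ribonucleoprotein, with percentiles of 25.3, 79.5 and 92.8 in E11.5 lists, 76.2 and 92.2 in E12.5 samples 1 and 2, and no call in E10.5 lists. Another was the region of Gng5, a G protein gamma subunit, and Spata1, with starts 42 bp apart and percentiles of 32.9, 82.4 and 84.5 in E11.5 lists. The E11.5 counts changed when a list was left out. The 112 became 191 without E11.5 sample 1, 72 without E11.5 sample 2 or 3 and 184 without E12.5 sample 2. The 54 became 14 and 13 without E11.5 sample 2 and 3. Without 1 E11.5 list, a region called by E11.5 lists alone misses the minimum of 3 lists, so part of the falls is built in. A left-out list also makes the criterion easier to meet, so part of the rises is built in. With a minimum of 5 lists the 112 became 43 and the 54 became 3. The 3 E10.5 regions absent from E11.5 became 5 and 11 without E11.5 sample 2 and 3, and the 3 E12.5 regions absent from E11.5 became 12 without E11.5 sample 3 and 5 without E12.5 sample 1.

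Regions shared by both genes of known bidirectional promoters ranged from calls in every list to almost none. Of 15 gene pairs known for a divergent or shared promoter, 11 had a two-gene region, and 5 of these were called by all 9 lists, among them Hspd1/Hspe1 and Ppat/Paics. Hspd1 and Hspe1 encode the mitochondrial chaperonin and its co-chaperonin, and their region had fold percentiles of 97.9, 86.1 and 97.4 in E10.5 lists, 56.6, 79.8 and 94.5 in E11.5 lists, and 72.9, 86.8 and 92.2 in E12.5 lists. Ppat and Paics, which encode enzymes of purine synthesis, had 87.2, 96.3 and 97.9 in E10.5 lists, 71.2, 82.8 and 96.6 in E11.5 lists, and 86.4, 99.0 and 97.2 in E12.5 lists. Both regions were thus high in nearly every list, with E11.5 sample 1 the lowest for each. The regions of Prkdc/Mcm4 and Gart/Son were called by 8 lists, all but E12.5 sample 1.

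Other textbook pairs were called less often or with low folds. The region between Mrps12, a mitochondrial ribosomal protein gene, and Sars2, the mitochondrial seryl-tRNA synthetase gene, had percentiles of 2.8 and 4.4 in E10.5 samples 1 and 2, 29.7, 66.8 and 85.5 in E11.5 lists, and 46.2 in E12.5 sample 2, and was not called in the other 3 lists. Ranbp1/Trmt2a was called by 6 lists, with percentiles of 51.6, 14.4 and 64.6 in E10.5 lists, 75.5 and 89.5 in E11.5 samples 2 and 3, and 90.7 in E12.5 sample 2. Tap1/Psmb9, which serve antigen presentation, were called by 5 lists with percentiles of 17.9 to 67.9. At Surf1/Surf2, Col4a1/Col4a2 and Tk1/Afmid at most 1 list called a region over both genes, so that they are not members, and Acat2/Tcp1 shared no region. Of the genes in these 4 pairs, 2 had a one-gene region alone, and each of the 9 lists called both of those regions.

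The 5 regions in all 9 lists with the highest mean fold percentile were at Zfp654/Cggbp1 (99.7), Pdcd10/Serpini1 (99.1), Chchd7/Plag1 (99.1), Rpgrip1/Hnrnpc (98.7) and Rab5b/Pmel (98.5). Cggbp1 encodes a protein that binds CGG repeats, and its region had percentiles of 98.8 or more in each of the 9 lists. Hnrnpc encodes an RNA-binding protein of the nucleus, and its region ranged from 94.4 to 99.9. Pdcd10 and Serpini1 lie 640 bp apart start to start, at the wide end of the gaps, and had 95.7 or more in each list.

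**Figure D3:**
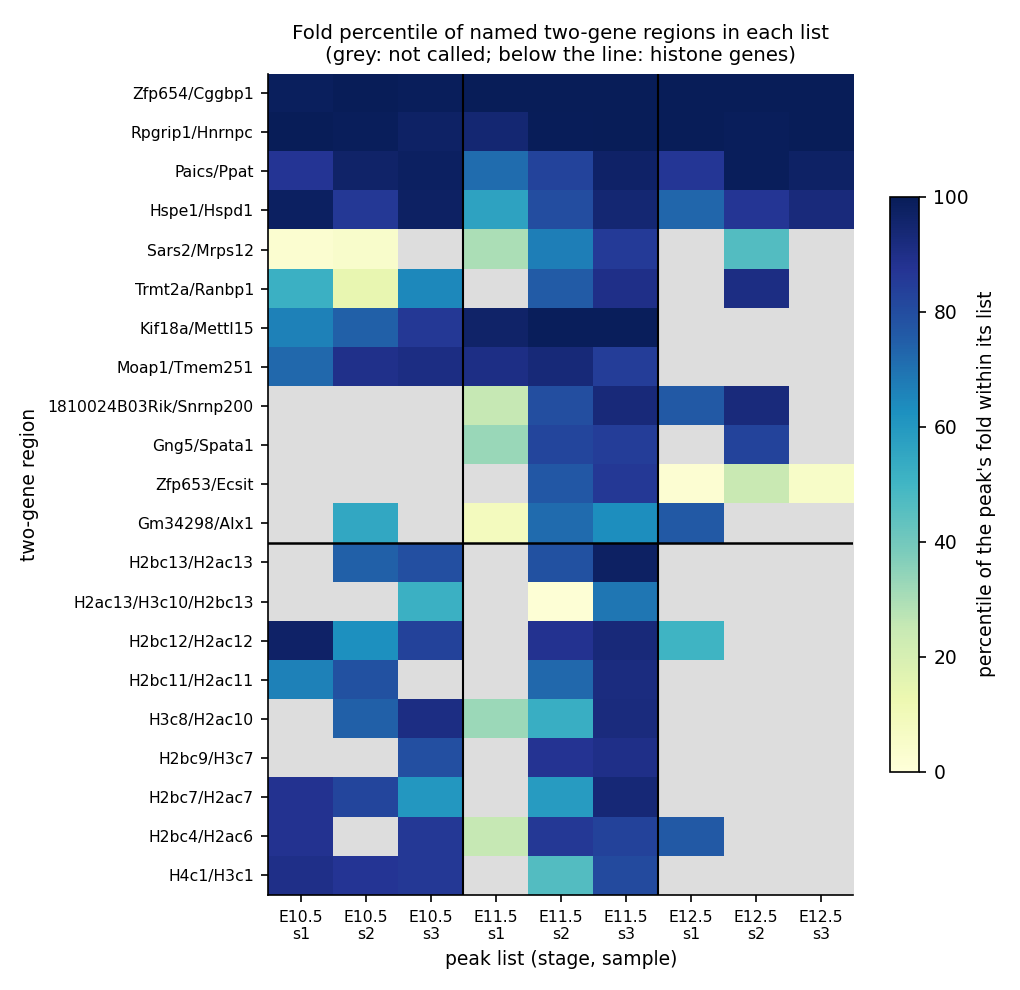
Percentile of the peak's fold within its list (colour, 0 to 100; grey, not called) for 12 named two-gene regions and, under the line, the 9 two-gene regions at histone genes, in the 9 lists (columns, ordered by stage and sample). Zfp654/Cggbp1 is dark in every column, Kif18a/Mettl15 and Moap1/Tmem251 are grey throughout E12.5, and the histone rows are almost wholly grey there, with 2 coloured cells in E12.5 sample 1.

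Regions at histone genes were nearly missing from the E12.5 lists. The 9 two-gene regions at histone genes, all on chromosome 13, lie at 17 such genes, and they were singled out after their values were seen, so that their counts are a description. Of the 9, 5, 6 and 8 were called in the E10.5 lists, 2, 9 and 9 in E11.5 lists, and 2, 0 and 0 in E12.5 lists. No E12.5 list thus reached the lowest E10.5 list, and the longest list of all, E12.5 sample 2, called none. One-gene regions at histone genes, also 9, were called 5, 4 and 6 times in E10.5 lists, 4, 7 and 8 times in E11.5 lists, and 4, 4 and 2 times in E12.5 lists, and these E12.5 and E10.5 lists overlapped. The mean share called in E12.5 lists was 7.41% for the histone regions, against 53.5% for all 1176 two-gene regions.

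Where they were called, the histone regions had fold percentiles of 1.3 to 97.4, and several were high. H2bc7/H2ac7, an H2B and an H2A gene with starts 173 bp apart, had fold percentiles of 88.1, 82.3 and 60.4 in E10.5 lists and 58.9 and 93.4 in E11.5 samples 2 and 3, and no E12.5 list called it. H4c1/H3c1, genes of histones H4 and H3, had 89.5, 87.3 and 86.3 in E10.5 lists and 46.1 and 80.6 in E11.5 samples 2 and 3, with no call in E12.5 lists. These 2 regions met the criterion of all E10.5 and no E12.5 lists. H2bc12/H2ac12 was called by 6 lists, with 96.7, 62.7 and 83.0 in E10.5 lists, 88.1 and 92.8 in E11.5 samples 2 and 3, and 50.7 in E12.5 sample 1. H2bc4/H2ac6 was the other region with an E12.5 call, at the 76.2 percentile of sample 1. The remaining 5 (H2bc13/H2ac13, H2ac13/H3c10, H2bc11/H2ac11, H3c8/H2ac10 and H2bc9/H3c7) were called by 3 to 5 lists, never at E12.5. Histone genes are near-identical copies, no source used here states how reads that map to several of them were treated, and neighbouring regions share a gene, so these calls are uncertain gene by gene and are not independent.

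Two-gene regions were found at housekeeping gene families and hardly at developmental genes. Of all protein-coding genes 10.6% had a two-gene region, against 47.8% of mitochondrial import genes (11 of 23, such as Timm10 and Tomm40), 44.8% of DNA repair genes (26 of 58, such as Xrcc1 and Ung), 34.6% of chaperones and chaperonins (9 of 26, such as Cct3 and Pfdn2), 33.3% of respiratory chain genes (27 of 81, such as Ndufs3 and Ndufa8), 32.4% of tRNA synthetases (12 of 37), 30.9% of splicing genes (21 of 68) and 30.8% of mitochondrial ribosomal protein genes (24 of 78). Cytosolic ribosomal protein genes (15.0%, 12 of 80) and proteasome genes (17.9%, 7 of 39) were closer to the value of all genes, although 52.5% and 51.3% of them had a one-gene region alone. DNA replication and cell cycle genes had 20.6% (14 of 68). No Hox gene of 39 had a two-gene region. Of 61 maxillary patterning and neural crest factors 1 did, Alx1, and of 48 genes of FGF, BMP, Wnt and hedgehog signalling 1 did, Spry4.

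The lists also differed in how often their genes lie close to another gene. Another gene's boundary was within 2 kb, close enough for a region near both, for 32.6% of all genes, but for 72.4% of DNA repair, 65.2% of mitochondrial import and 64.2% of respiratory chain genes, and for 9.84% of the patterning factors and 8.33% of the signalling genes. Among genes with such a neighbour the share with a two-gene region was 32.5% for all genes, 73.3% for mitochondrial import (11 of 15), 63.2% for tRNA synthetases (12 of 19), 61.9% for DNA repair (26 of 42), 60.0% for splicing (21 of 35), 51.9% for the respiratory chain (27 of 52) and 48.0% for the mitochondrial ribosome (24 of 50). This share was 52.9% for chaperones (9 of 17), 43.8% for DNA replication and cell cycle (14 of 32) and 41.2% for the proteasome (7 of 17). It was 32.1% for histone genes (17 of 53), 30.8% for the cytosolic ribosome (12 of 39) and 21.4% for collagens (3 of 14). Signalling genes had 25.0% (1 of 4), patterning factors 16.7% (1 of 6) and Hox genes 0 of 13. So few signalling and patterning genes have a neighbour that their shares cannot be set apart from that of all genes. These lists were chosen with earlier results of these data known, and their counts carry no test.

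**Figure D4:**
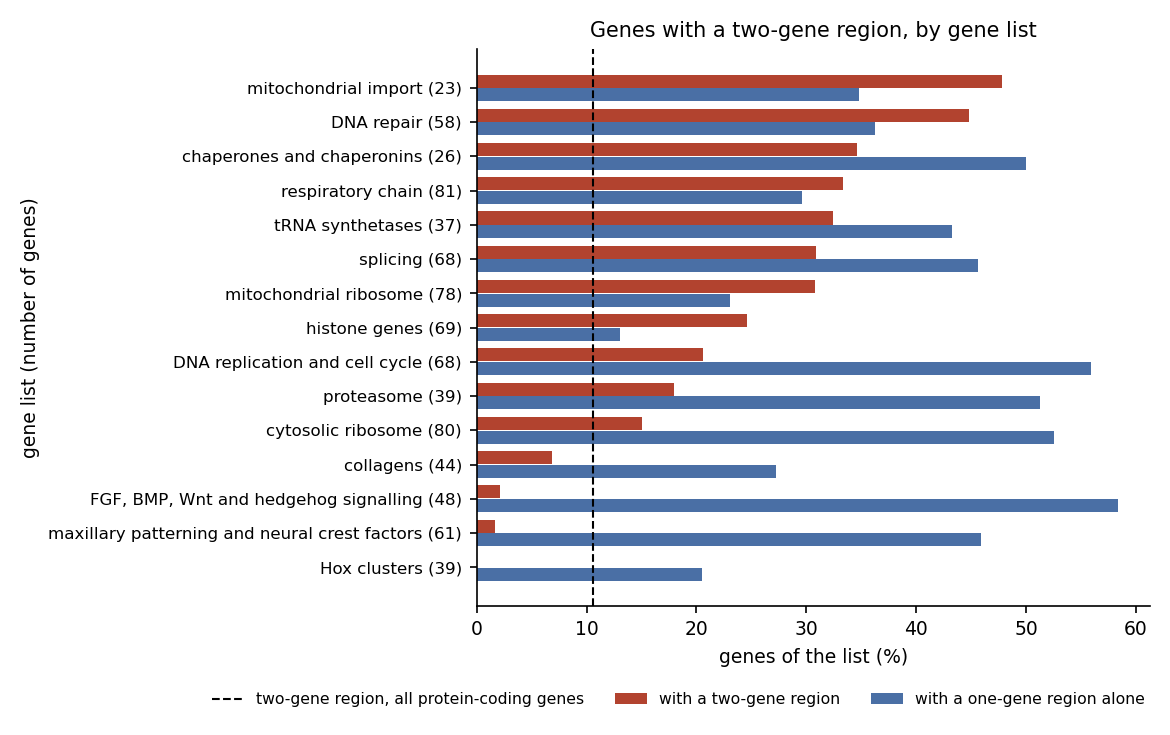
Share of the genes of each list (horizontal axis, percent; number of genes in brackets) that have a two-gene region, and share that have a one-gene region alone; the dashed line marks the 10.6% of all protein-coding genes with a two-gene region. Mitochondrial import and DNA repair are at the top with 47.8% and 44.8%, and signalling, patterning and Hox genes are at the bottom with 2.08%, 1.64% and 0%, although one-gene regions are common at the signalling genes (58.3%).

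The few members at tissue genes were called in part of the lists. The region of Alx1, a homeobox factor of the frontonasal and maxillary mesenchyme, and Gm34298 had fold percentiles of 55.0 in E10.5 sample 2, 8.4, 71.7 and 63.0 in E11.5 lists, and 76.2 in E12.5 sample 1. Its midpoint lay 303 bp from the boundary of Gm34298 and 867 bp from that of Alx1, with strand not given. Col4a3/Col4a4, basement membrane collagen genes known to share a promoter, were called by 6 lists with percentiles of 31.7 to 97.5, the highest in E12.5 sample 3. Phykpl/Col23a1 was called by all E10.5 and E11.5 lists, at 63.5, 13.9 and 26.9 and at 40.7, 77.4 and 61.2, and by no E12.5 list. This tandem region lay 92 bp from the 5′ end of Phykpl and 821 bp from the 3′ end of the collagen gene Col23a1. As a check of the tissue, 7 of 10 mesenchyme and neural crest markers had a region near a boundary in at least 3 lists. Twist1 had the most, with 8 lists, followed by Twist2 with 6, while the defining markers Prrx1 and Prrx2 had none. Of the other markers, 1 of 8 epithelial, 2 of 5 endothelial, 1 of 4 neuronal and glial, 0 of 4 blood and 0 of 3 muscle markers had one. The endothelial marker Kdr, with 7 lists, stood above every mesenchyme marker but Twist1. Per list, 2 to 6 mesenchyme markers were called in E10.5 lists, 1 to 7 in E11.5 lists and 3 to 5 in E12.5 lists, and epithelial ones 0 to 1, 0 to 2 and 0 to 3. Their part in the results was not tested.

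The regions of some other gene families were also followed by stage, with no test. Two-gene regions of DNA repair genes (26 regions) were called at 79.5% ± 5.88 in E10.5 lists, 89.7% ± 17.8 in E11.5 lists and 53.8% ± 10.2 in E12.5 lists, and those of respiratory chain genes (27 regions) at 71.6% ± 15.4, 81.5% ± 32.1 and 50.6% ± 11.9 at the same stages (SD, n = 3 each). Splicing regions (22) had 78.8% ± 2.62 in E10.5 lists, 87.9% ± 21.0 in E11.5 lists and 51.5% ± 11.4 in E12.5 lists. All two-gene regions had 69.4% in E10.5 lists, 81.7% in E11.5 lists and 53.5% in E12.5 lists. Mitochondrial ribosomal regions (26) had 67.9% ± 5.88 in E10.5 lists, 84.6% ± 26.6 in E11.5 lists and 41.0% ± 17.3 in E12.5 lists. Not every family was lower in E12.5 than in E10.5 lists. Chaperone and chaperonin regions (9) had 59.3% ± 17.0 in E10.5 lists, 81.5% ± 32.1 in E11.5 lists and 66.7% ± 19.2 in E12.5 lists. Regions of tRNA synthetases (11) changed little, with 63.6% ± 24.1 in E10.5 lists and 57.6% ± 13.9 in E12.5 lists.

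Promoters of divergent regions were richer in CpG and in an ETS motif than other promoters. The promoter of the nearest gene with a 5′ end was read from 250 bases before to 50 after the start. All 708 divergent regions matched one, with a median CpG observed over expected ratio of 0.86, against 0.74 in 156 tandem regions, 0.78 in 5644 one-gene 5′ regions and 0.59 in all 17274 promoters. The ETS letters CCGGAAG on either strand were in 27.5% of divergent and 21.8% of tandem promoters, against 15.4% of one-gene 5′ promoters and 12.1% of all promoters. The TATA box letters TATAAA were in 3.53% of divergent and 6.41% of tandem promoters, against 6.47% of one-gene 5′ and 13.4% of all promoters. The letters CTCGCGA, a ZBTB33-like motif, were in 7.91% of divergent and 5.13% of tandem promoters, against 4.11% of one-gene 5′ and 2.78% of all promoters. Of the other motifs, CCAAT was in 44.2% of divergent and 40.1% of one-gene 5′ promoters, GGGCGG in 69.4% and 70.8%, GCATGCG in 6.78% and 7.02%, CACGTG in 10.2% of each, and AAGATGG, a YY1 motif, in 9.46% and 6.52%. Within the divergent regions, those in all 9 lists had CCAAT in 52.1% and ETS letters in 25.4% of promoters, and those in 3 lists had them in 35.6% and 34.5%. A divergent promoter window can reach into the partner's promoter, so a motif may be counted for both genes. GCATGCG overlaps its own reverse complement, and CACGTG equals it.

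The edges of the rule were gradual. Members whose second boundary lay over 900 and up to 1000 bp away (42 regions) were called by 5.71 lists on average, and regions just outside, at over 1000 and up to 1100 bp (47 regions), by 5.62. Members called by exactly 3 lists numbered 198, with a median fold percentile of 56.1, while 281 regions in a two-gene position were called by 2 lists, with a median of 45.5, and 514 by 1 list, with 17.5.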

How the data were processed

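The data are 9 peak lists, 1 per biological sample and 3 per stage, from 23 sequencing runs (1 to 4 per sample). The tools named in the submitters' processing notes are Bowtie2, deepTools 3.3.1 and MACS2, and the build is mm10. Per the labels, peaks were called in paired-end mode and blacklisted regions removed. The peak threshold, the handling of reads mapping to several places and the transposase offset were not stated there. Every deposited file gives a fold over background per peak (a ratio) and a −log10 p-value and −log10 q-value, all the authors' own. The deposited −log10 q values started at 1.30 to 1.32 in each file. Read counts are not part of these files, so depth is unknown and no counting interval is given.

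Peaks were merged across lists, and a list called a region when 1 of its peaks fell in it. Genes came from a RefSeq table of GRCm38.p6, with strand from its promoter table. Log2 odds ratios had 0.5 added to each count. Fold values of different lists are not comparable, so percentiles within a list were used. Slopes over stages were tested with exact permutations, and means over lists with exact sign flips, at 0.05. These p-values measure the spread between the samples. The code was tested on simulated data. Python 3.11.15, NumPy 2.4.6, pandas 2.3.3 and Matplotlib 3.10.9 were used.

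The members, gene lists, motifs and tests were chosen with earlier results of these data known. Regions named are the textbook pairs; for each stage comparison, up to 5 that separate the stages completely, by lists calling and then mean fold percentile; the 5 highest by fold percentile in all 9 lists; the 3 with most genes; and those at patterning, Hox, collagen or signalling genes. The histone regions were added after their values were seen.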

Additional observations from a re-analysis of the deposited data

Results flagged for a closer look

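The log2 odds ratio of divergent against tandem two-gene regions had a slope of -0.40 per day over stages before adjustment (exact two-sided permutation test, p = 0.0095). Its stage means were 1.70 ± 0.24 in E10.5 lists, 1.26 ± 0.28 in E11.5 lists and 0.90 ± 0.39 in E12.5 lists (SD, n = 3 each). It did not hold after adjustment over the 7 slopes tested (0.0667). Stage groups of 3 lists are too small for a check of single lists that stand apart.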

How the results depend on the processing

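The higher odds of a call for two-gene regions passed the test under all 23 alternatives. Among these are comparisons of other sets: annotated divergent pairs against lone starts (2.12) and divergent against one-gene 5′ regions (0.84). Both, and the CpG setting, were added after the data were seen. The rest of the alternatives gave 0.36 to 0.64 (0.51 to 0.64 with 1 list left out). The slope of the share called passed under none of 19 (-14.5 to -3.93 percentage points per day). The cause of the changes listed next was not tested. The fold percentile difference no longer passed with boundaries within 2 kb (0.55 points), a −log10 q of at least 5 (1.65) or midpoints within 250 bp (0.83), and turned to -0.21 in equal-length lists (2.19 to 3.01 with 1 list left out). Divergent against tandem regions passed in all but peaks covering at least 50% of the region (0.42; 1.12 to 1.34 with 1 list left out). Its slope had an unadjusted p above 0.05 within 2 kb (-0.26), with 2 or more lists (-0.26), a −log10 q of at least 5 (-0.43), equal-length lists (-0.48) and the cover of 50% (-0.63); it was -0.55 to -0.31 with 1 list left out. The slope of the two-gene log2 odds ratio, which did not pass in any fit, turned positive with 5 or more lists (0.026), a −log10 q of at least 5 (0.022), equal-length lists (0.075), 5′ ends alone (0.010) and midpoints within 250 bp (0.024), and was -0.10 to 0.080 with 1 list left out. The slope of the fold percentile difference turned with summits in place of midpoints (0.031; -0.78 to 0.023 with 1 list left out).

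Counts of regions that separate stages moved most. With 1 list left out, the criterion has fewer lists to meet while the minimum stays at 3 lists, so part of those changes is built in. A minimum of 5 lists likewise removes every region called by the 3 lists of 1 stage alone. For all E12.5 and no E10.5 lists, the 5 regions became 14 within 2 kb, 3 with 5 or more lists, 1 with a −log10 q of at least 5, 1 in equal-length lists and 0 with the cover of 50% (4 to 13 with 1 list left out). For all E12.5 and no E11.5 lists, the 3 became 14 within 2 kb and 0 with 5 or more lists, with a −log10 q of at least 5, in equal-length lists and with the cover of 50% (3 to 12). For all E10.5 and no E11.5 lists, the 3 became 1 within 500 bp, 1 with 5 or more lists, 0 with a −log10 q of at least 5 and 9 in equal-length lists (2 to 11). For all E11.5 and no E10.5 lists, the 54 became 3 with 5 or more lists (13 to 77). For all E11.5 and no E12.5 lists, the 112 became 43 with 5 or more lists and 170 in equal-length lists (72 to 191). For all E10.5 and no E12.5 lists, the 36 ranged from 36 to 82 with 1 list left out.

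No pairing of the lists by sample number was seen. The deviations of same-numbered lists from their stage means correlated at -0.149 to 0.0662 (9 pairs), and those of other-numbered lists at -0.0981 to 0.174 (18 pairs). Weak correlations of calls do not decide whether equal numbers stand for a pairing. With the number as a block, the slopes were unchanged by construction at -7.98, -0.04, -0.16 and -0.40, and no call changed. No read depth is known, so a region that a list does not call may be open and below its threshold.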
